A study of Mus musculus with 6 samples.

Results

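Toll-like receptors are innate immune sensors that recognise microbial molecules and some products of damaged cells. The group described here holds 10 mouse genes of that family, chosen by name and taken whole, of 24984 genes listed in the count files. Tlr11 and Tlr12 are also of that family but not in the group, and they are given below with the pathway genes. All 10 were listed and all 10 were among the 14065 genes that passed the filter on low counts. They divide into 5 receptors of the cell surface (Tlr1, Tlr2, Tlr4, Tlr5 and Tlr6) and 5 of the endosome (Tlr3, Tlr7, Tlr8, Tlr9 and Tlr13). The libraries were made from bulk inguinal white fat, which lies under the skin of the groin. All mice had a high-fat diet (HFD), and the 2 groups were wild type (WT HFD, 3 libraries) and Mpst knockout (KO HFD, 3 libraries). MPST is a sulfurtransferase of mitochondria and cytosol. Age, sex and strain of the mice, the time on the diet and the structure of the Mpst allele are not stated in the labels. The labels number the replicates and do not say whether each came from its own mouse, so a p-value here reflects only library-to-library spread, which may be technical.

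Surface receptors bind lipids and proteins of microbes, and endosomal receptors bind nucleic acids taken up by the cell. Ligand binding joins their cytoplasmic TIR domains to the adaptor MyD88, or to TRIF for TLR3 and internalised TLR4, and the signal reaches NF-kB and interferon regulatory factors. In adipose tissue the receptors are known from macrophages and other leukocytes. TLR4 and TLR3 are also described in adipocytes, fibroblasts and endothelial cells. The comparison of the genotypes asks how transcripts of these receptors in fat of mice on this diet differ without MPST.

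Library totals ranged from 8054560 counts in knockout replicate 1 to 22458630 in knockout replicate 2. Mpst stood at 81.1 ± 5.01 CPM (counts scaled to a common library size) in wild type and 0.393 ± 0.0424 CPM in the knockout libraries (SD, n = 3 each), and every library matched its genotype label. Adipoq, which encodes the adipocyte hormone adiponectin, was at 3535 CPM or more in all libraries. Ddx3y, a Y-linked gene, was at 44.6 CPM or more in every library and Xist at 0.119 CPM or less. Skeletal muscle transcripts stood apart in wild-type replicate 2 and knockout replicate 3, with 658 and 1560 CPM summed over 5 markers against 29.8 to 125 in the other libraries. A gene was called at an adjusted p under 0.05 in edgeR's quasi-likelihood test. Knockout levels were called higher for 4.76% of the 14065 tested genes and lower for 2.65%, and in 17.8% every knockout library lay above every wild-type library.

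Every knockout library lay above every wild-type library for each of the 10 receptors. Tlr2 and the endosomal Tlr7, Tlr8 and Tlr13 rose by the test. None of the 10 fell, and all 10 had an unadjusted p under 0.05, as did 3878 of the 14065 tested genes in either direction. DESeq2 called 6 and limma-voom 5, all higher. The edgeR count of 4 of 10 stands beside the 4.76% of all tested genes that were called higher. Fitted log2 fold changes, knockout over wild type, ran from 0.33 for Tlr4 to 2.20 for Tlr13. Their median was 1.13 against 0.01 over all tested genes, and without Tlr9 it was the 1.05 of Tlr6. Tlr9 passed the low-count filter through the knockout libraries alone, so its part in these counts is no support for the direction. The 6 that were not called had adjusted p from 0.0519 to 0.137, and a p above the threshold does not show that they were alike in the 2 genotypes.

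**Figure D1:**
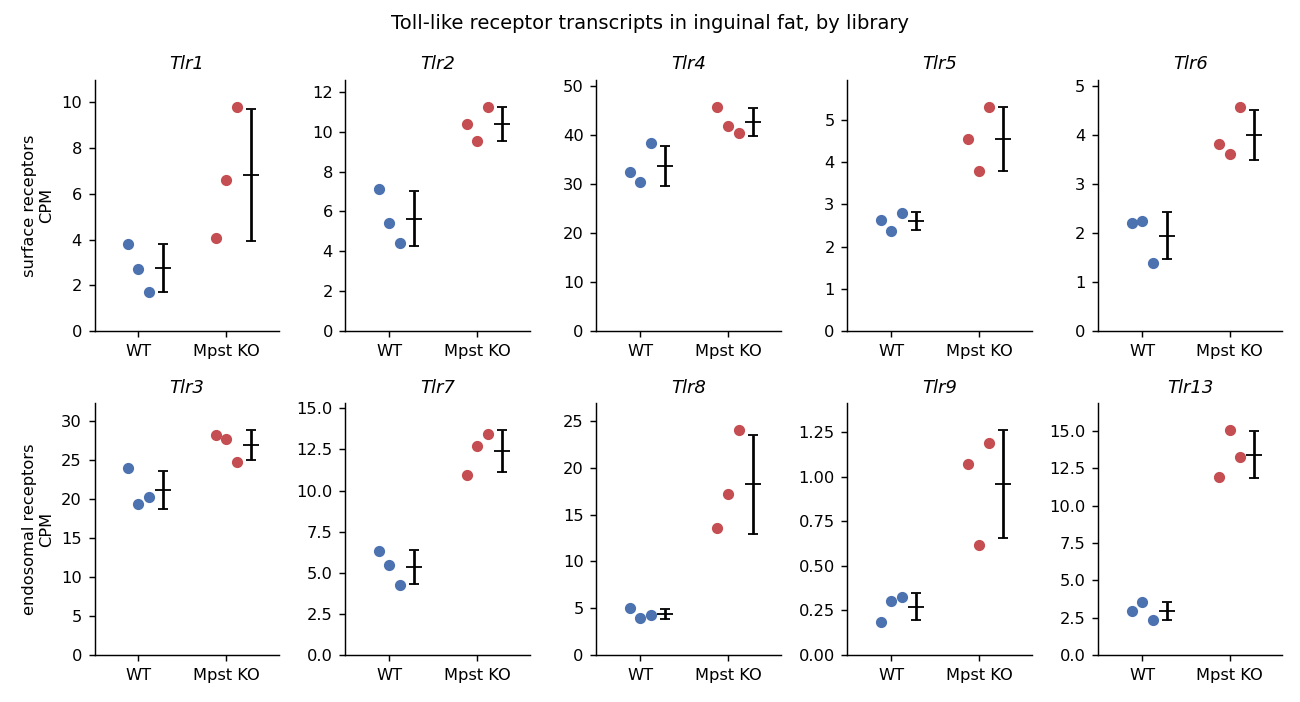
Level of each Toll-like receptor transcript in CPM (vertical axis, from 0, scaled for each gene) in the 3 wild-type (blue) and 3 Mpst knockout (red) libraries, with mean and SD in black. The red points lie above the blue points in all 10 panels, as in Tlr13 (2.95 ± 0.579 against 13.4 ± 1.57 CPM) and Tlr8 (4.40 ± 0.558 against 18.3 ± 5.30 CPM). Relative to the level, the difference is smallest in Tlr4 and Tlr3.

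The calls depended on single libraries. Without wild-type replicate 2, knockout replicate 2 or knockout replicate 3, none of the 10 receptors was called by edgeR (8, 8 and 10 of them had an unadjusted p under 0.05), and over the whole table no more than 2 genes were called in either direction. Without knockout replicate 1, Tlr8 and Tlr13 were called, and without wild-type replicate 3, 8 of the 10 were. With each library left out in turn, the log2 fold change of Tlr13 ranged from 2.06 to 2.34 (adjusted p 0.00117 to 0.0784), of Tlr8 from 1.81 to 2.23, of Tlr7 from 1.08 to 1.36 and of Tlr2 from 0.73 to 1.09. Without the 2 libraries high in muscle transcripts, a comparison added after the data were seen, none was called (6 had an unadjusted p under 0.05). How many of all tested genes had such a p in these fits was not counted. All 10 stayed above 0 in these fits, but groups that do not overlap can hardly change direction when a library is left out.

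Markers of several cell types differed between the same groups of libraries. Of 12 macrophage markers, 5 rose (Adgre1, Cd68, Itgam, Fcgr1 and Mrc1) and none fell, beside the 4.76% and 2.65% of all tested genes, and none was at 0. The other 7 were not called. Among them C1qa, Mertk and Cd163 overlapped between the groups, and Cd163 had a log2 fold change of −0.20. Their summed level was 904 to 1661 CPM in the wild-type libraries and 2053 to 2268 CPM in the knockout libraries. In bulk tissue more cells of a type and more RNA per cell cannot be told apart. Summed B cell markers overlapped between the groups (5.85 to 12.7 against 9.42 to 12.6 CPM), as did T cell markers (4.96 to 9.61 against 6.80 to 27.2 CPM) and monocyte markers (40.7 to 84.1 against 66.1 to 78.4 CPM). Summed plasmacytoid dendritic cell markers were 1.16 to 3.43 CPM in the wild-type libraries and 2.27 to 2.46 CPM in the knockout libraries. Conventional dendritic cell markers summed to 27.3 to 46.1 against 63.7 to 73.3 CPM, and the gap came from Itgax, which macrophages also express (log2 fold change 1.70, edgeR adjusted p = 0.0509). Without Itgax the other 5 markers summed to 26.8, 26.3 and 22.1 CPM against 25.5, 24.0 and 36.8 CPM and overlapped. The neutrophil markers summed to at most 2.07 CPM in any library and Ngp, one of them, had no count. Mast cell markers summed to 30.0 to 34.0 CPM in wild type and 50.1 to 52.8 CPM in knockout. Endothelial markers summed to 707 to 736 against 851 to 1030 CPM, with Vwf called higher of 5. Fibroblast and progenitor markers summed to 1009 to 1543 against 1658 to 1849 CPM, with Dcn called higher of 5. These 3 sums did not overlap. Of the 5 fibroblast and progenitor markers, 3 had log2 fold changes above 0. Pi16 (−2.10) and Dpp4 (−0.46) were below 0, overlapped between the groups and were not called. Of 7 adipocyte markers 6 had log2 fold changes below 0. Lipe, hormone-sensitive lipase, fell (log2 fold change −0.70, edgeR adjusted p = 0.0415). Adipoq was at 4922, 5770 and 4257 CPM against 4245, 3982 and 3535 CPM, without overlap and not called (log2 fold change −0.35, edgeR adjusted p = 0.240). The part of these cell types in the receptor differences was not tested.

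Among the surface receptors, Tlr2 forms dimers with Tlr1 or Tlr6 that bind bacterial lipopeptides. Tlr2 (chromosome 3, 83836272 to 83841767, minus strand, GRCm38) had 7.11, 5.41 and 4.41 CPM in wild-type replicates 1 to 3 and 10.4, 9.51 and 11.2 CPM in knockout replicates 1 to 3. The wild-type libraries were low and did not reach the lowest knockout library. Tlr2 rose 1.84-fold, from 5.64 ± 1.36 to 10.4 ± 0.870 CPM (SD, n = 3 each; log2 fold change 0.88, SE 0.22, edgeR adjusted p = 0.0442).

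Tlr1, the partner for triacylated lipopeptides, had 3.80, 2.74 and 1.72 CPM in the wild-type libraries and 4.05, 6.60 and 9.80 CPM in the knockout libraries. It had the widest spread relative to its mean of the 10 in both groups. The lowest knockout library was close to the highest wild-type library, and knockout replicate 3 was the highest. That library was also the highest in summed T cell, endothelial and skeletal muscle markers, and a link was not tested. The difference was not called (log2 change 1.35, SE 0.38, edgeR adjusted p = 0.0639). Tlr6, the partner for diacylated lipopeptides, had 2.21, 2.25 and 1.39 CPM in the wild-type libraries and 3.82, 3.61 and 4.58 CPM in the knockout libraries, and the gap between the groups was wider than the spread within either. It was not called either (log2 fold change 1.05, SE 0.28, edgeR adjusted p = 0.0559). Tlr1 and Tlr6 lie 18467 bases apart on chromosome 5 and are close paralogs: 10.3% of the 75-base stretches of Tlr1 transcripts, the read length, also occur in Tlr6. Counts from that stretch are uncertain in both.

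On a scale per transcript length (CPM per kilobase of exon), Tlr1 stood at 0.481, 0.455 and 0.351 of the Tlr2 level in the wild-type libraries and at 0.352, 0.626 and 0.785 in the knockout libraries. The values overlapped between genotypes (exact permutation test of the log2 ratio, two-sided p = 0.30, adjusted p = 0.533 over 4 ratios, where 0.10 is the smallest unadjusted p that 3 against 3 libraries allow). Tlr6 stood at 0.281 ± 0.0480 of the Tlr2 level in wild type and 0.311 ± 0.0165 in knockout (SD, n = 3 each; exact permutation p = 0.40, adjusted p = 0.533). The ratio of Tlr1 to Tlr6 was 1.55 ± 0.320 and 1.87 ± 0.617 (exact permutation p = 0.60, adjusted p = 0.60). All 3 ratios overlapped between the groups, while each of the 3 transcripts alone did not.

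Tlr4, which binds lipopolysaccharide with its partner MD-2, was the most abundant member. It had 32.4, 30.5 and 38.3 CPM in the wild-type libraries and 45.8, 41.8 and 40.3 CPM in the knockout libraries. The groups came near each other, with wild-type replicate 3 about level with knockout replicate 3. The log2 fold change was 0.33 (SE 0.13) and was not called (edgeR adjusted p = 0.133). Tlr5, the flagellin receptor, had 2.64, 2.37 and 2.79 CPM in wild type, the tightest wild-type group of the surface receptors relative to the mean, and 4.53, 3.79 and 5.31 CPM in the knockout libraries. All knockout libraries were clear of the wild-type libraries, but the difference was not called (log2 change 0.80, SE 0.24, edgeR adjusted p = 0.0746).

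**Figure D2:**
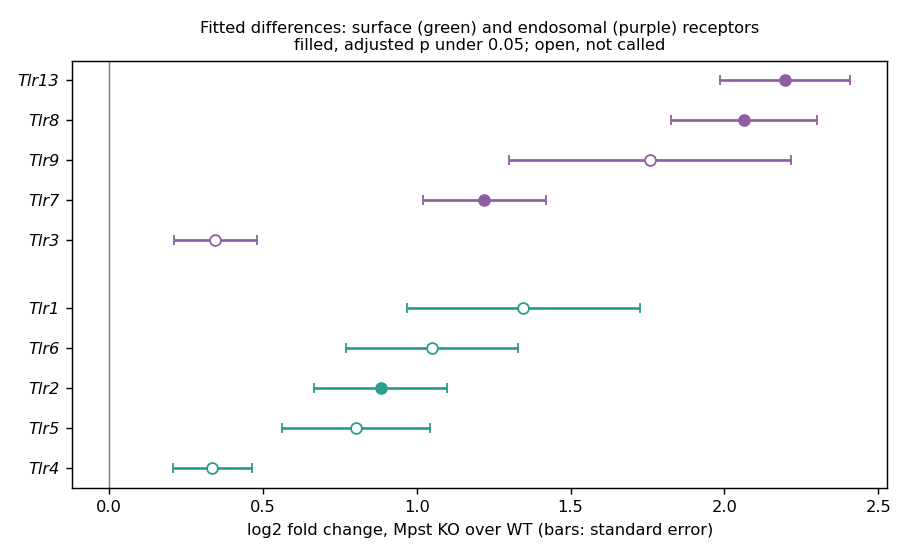
Fitted log2 fold change of each receptor, Mpst knockout over wild type (horizontal axis), with its standard error; surface receptors are green and endosomal receptors purple, and filled points were called. All 10 lie above 0; the 3 filled purple points are Tlr7 (1.22), Tlr8 (2.06) and Tlr13 (2.20), and the filled green point is Tlr2 (0.88).

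Among the endosomal receptors, Tlr13 recognises a stretch of bacterial ribosomal RNA and is absent from the human genome. Tlr13 (chromosome X, 106143204 to 106160493, plus strand, GRCm38) had 2.94, 3.53 and 2.37 CPM in the wild-type libraries and 11.9, 15.1 and 13.3 CPM in the knockout libraries. The lowest knockout library lay far above the highest wild-type library, and raw counts were 48, 58 and 51 against 100, 342 and 313, with knockout replicate 1 the shallowest library. Tlr13 rose 4.59-fold, from 2.95 ± 0.579 to 13.4 ± 1.57 CPM (SD, n = 3 each; log2 fold change 2.20, SE 0.21, edgeR adjusted p = 0.0107).

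Tlr8 and Tlr7 are neighbouring genes that bind single-stranded RNA and its breakdown products. Tlr8 (chromosome X, 167242696 to 167264329, minus strand) had 5.03, 3.95 and 4.23 CPM in the wild-type libraries and 13.6, 17.2 and 24.0 CPM in the knockout libraries. The wild-type libraries lay close together and the knockout libraries were spread, with replicate 3 highest. Tlr8 rose 4.18-fold, from 4.40 ± 0.558 to 18.3 ± 5.30 CPM (SD, n = 3 each; log2 fold change 2.06, SE 0.24, edgeR adjusted p = 0.0119). Tlr7 (chromosome X, 167304929 to 167330558, minus strand, 40599 bases from Tlr8) had 6.31, 5.47 and 4.27 CPM in the wild-type libraries and 11.0, 12.7 and 13.5 CPM in the knockout libraries. The groups were well apart. Tlr7 rose 2.33-fold, from 5.35 ± 1.03 to 12.4 ± 1.28 CPM (SD, n = 3 each; log2 fold change 1.22, SE 0.20, edgeR adjusted p = 0.0173).

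Per transcript length, Tlr8 stood at 0.906, 0.822 and 1.13 of the Tlr7 level in wild type and at 1.41, 1.54 and 2.03 in knockout. The 2 transcripts were thus about level in wild type, and Tlr8 was the higher of them in every knockout library (exact permutation test, two-sided p = 0.10, the smallest possible, and adjusted p = 0.40 over 4 ratios). Tlr7, Tlr8 and Tlr13 are the X-linked members. Of 450 other tested genes on chromosome X, 42 were called higher (9.33%) and 9 lower, with a median log2 fold change of 0.09.

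For 8 of the 10 members RefSeq promoter windows were at hand (GRCm38.p6, 250 bases before to 50 after the start, 10 windows in all). Windows of 3 of the 4 called receptors are shown, with 3 motifs searched on both strands in capitals. Tlr7, the other called receptor, had no window at hand, nor had Tlr4. The motifs were GAGGAA, a core bound by PU.1 and other ETS factors, TGANTCA, bound by AP-1, and GAAANNGAA, part of the interferon response element. The motifs did not overlap each other in these windows. Of 32851 RefSeq promoter windows of that length, 28.3% held GAGGAA, 7.81% TGANTCA and 8.56% GAAANNGAA, and of the 10 windows of the members 4, 1 and 2 did. The Tlr13 window (chrX:106143025-106143324, plus strand) held 1 GAGGAA, the Tlr8 window (chrX:167264280-167264579, minus strand) 1 GAGGAA and 1 GAAANNGAA, both on the opposite strand (TTCCTC and TTCAGTTTC as printed), and the Tlr2 window (chr3:83841559-83841858, minus strand) none of the 3. A match is a description of the letters and not a binding site.
Tlr13: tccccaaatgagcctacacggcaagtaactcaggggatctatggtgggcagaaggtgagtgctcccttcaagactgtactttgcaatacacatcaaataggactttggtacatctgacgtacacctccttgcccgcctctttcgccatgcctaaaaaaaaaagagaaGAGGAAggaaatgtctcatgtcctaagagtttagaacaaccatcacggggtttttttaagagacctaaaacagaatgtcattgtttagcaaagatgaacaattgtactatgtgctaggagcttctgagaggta
Tlr8: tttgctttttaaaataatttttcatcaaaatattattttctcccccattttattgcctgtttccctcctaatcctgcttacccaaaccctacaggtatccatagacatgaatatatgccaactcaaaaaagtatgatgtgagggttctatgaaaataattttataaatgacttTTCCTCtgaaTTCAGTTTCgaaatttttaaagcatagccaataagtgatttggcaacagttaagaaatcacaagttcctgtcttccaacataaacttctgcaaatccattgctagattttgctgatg
Tlr2: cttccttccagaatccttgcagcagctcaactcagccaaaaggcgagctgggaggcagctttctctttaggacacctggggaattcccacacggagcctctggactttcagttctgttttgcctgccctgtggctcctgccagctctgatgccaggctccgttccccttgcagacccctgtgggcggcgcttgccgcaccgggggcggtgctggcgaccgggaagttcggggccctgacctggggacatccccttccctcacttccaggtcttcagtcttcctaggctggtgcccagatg
The GC content of these windows was 43.3% for Tlr13, 32.3% for Tlr8 and 62.0% for Tlr2. The other windows with GAGGAA belonged to Tlr1, with 1 match in 1 of its 2 windows, and Tlr9, with 2.

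Tlr9, the receptor of unmethylated CpG DNA, was the least abundant member. It had 0.184, 0.304 and 0.325 CPM in the wild-type libraries and 1.07, 0.616 and 1.19 CPM in the knockout libraries, from raw counts of 3, 5 and 7 against 9, 14 and 28. The groups did not overlap, but Tlr9 passed the low-count filter through the knockout libraries alone (3 of 3 at or above 0.508 CPM, against 0 of 3 in wild type), so its difference is no support for the family's direction. It was not called (log2 change 1.76, SE 0.46, edgeR adjusted p = 0.0519). Tlr3, the receptor of double-stranded RNA that signals through TRIF, had 24.0, 19.3 and 20.2 CPM in the wild-type libraries and 28.3, 27.8 and 24.8 CPM in the knockout libraries. The highest wild-type library came close to the lowest knockout library, and the difference was not called (log2 change 0.35, SE 0.13, edgeR adjusted p = 0.137). An annotated antisense gene shares 381 exon bases with Tlr3, and the library kit does not mark strand, so reads from that stretch cannot be told apart.

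Of the 5 surface receptors 1 rose, and of the 5 endosomal receptors 3 did, beside 4.76% of all tested genes. The split depended on the tool: limma-voom called 2 surface receptors and DESeq2 3, each with 3 endosomal receptors. The median log2 fold change was 0.88 over the surface receptors and 1.76 over the endosomal receptors, or 1.64 over the endosomal receptors without Tlr9. Each class had 1 abundant member with a small difference, Tlr4 on the surface and Tlr3 in the endosome. Per transcript length, the summed surface level was 1.26, 1.30 and 1.45 times the summed endosomal level in the wild-type libraries and 0.992, 0.852 and 0.894 times in the knockout libraries. On this scale surface transcripts were thus the larger part in every wild-type library and the smaller part in every knockout library. Knockout replicate 1 was nearly level, and in CPM not scaled for length its surface sum was the larger (68.6 against 65.8). Among endosomal receptors the shares of Tlr8 (7.12% to 15.8%) and Tlr13 (4.0% to 9.80%) grew most, while that of Tlr3 fell (23.6% to 16.3%). Surface receptors made up 57.2% ± 1.81 of the summed level of the 10 in wild type and 47.7% ± 1.94 in knockout (SD, n = 3 each). No test is given for these sums over chosen members.

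**Figure D3:**
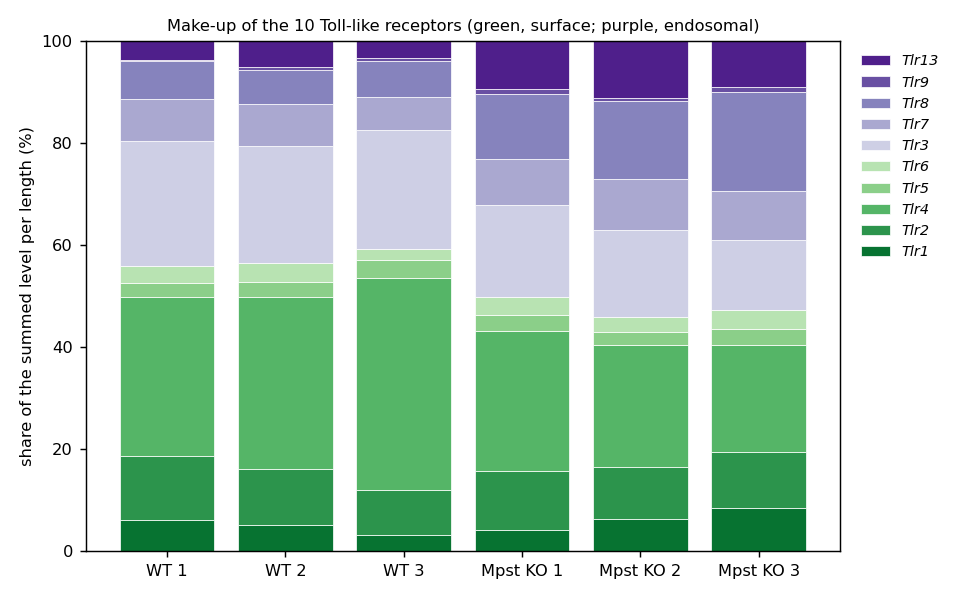
Share of each receptor in the summed level per transcript length of the 10 (vertical axis, percent) in each library, with surface receptors in green and endosomal receptors in purple. The green part is 55.8% to 59.3% in the wild-type libraries and 46.0% to 49.8% in the knockout libraries, and the bands of Tlr8 and Tlr13 are wider in the knockout.

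The order of the levels per transcript length was led by Tlr4 in both genotypes, at 6.07 ± 0.735 CPM per kilobase in wild type and 7.67 ± 0.510 in knockout (SD, n = 3 each). Tlr3 followed at 4.07 ± 0.471 in wild type, above all others. Next in wild type came Tlr2 (1.87 ± 0.453), Tlr7 (1.31 ± 0.251), Tlr8 (1.23 ± 0.156), Tlr1 (0.822 ± 0.311), Tlr13 (0.684 ± 0.134), Tlr5 (0.542 ± 0.0439) and Tlr6 (0.523 ± 0.129). Within this stretch each gene overlapped the next in its library values, and Tlr9 (0.0779 ± 0.0219) lay below all. In knockout Tlr8 (5.09 ± 1.48) overlapped Tlr3 (5.17 ± 0.361), and Tlr13 (3.12 ± 0.365) overlapped Tlr2 (3.44 ± 0.289) and Tlr7 (3.03 ± 0.313). Tlr8 ranked 3 and Tlr13 ranked 5 in knockout, against ranks 5 and 7 in wild type. As shares of the summed level, Tlr8 went from 7.12% ± 0.346 to 15.8% ± 3.41 and Tlr13 from 4.0% ± 0.915 to 9.80% ± 1.19. Tlr4 went from 35.5% ± 5.45 to 24.2% ± 3.27 and Tlr3 from 23.6% ± 0.858 to 16.3% ± 2.26, while Tlr2 was at 10.8% in both.

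Receptor counts were also set against the 12 macrophage markers in the same libraries, and the outcome depended on how the markers were weighted. With their counts summed, for Tlr6, Tlr7, Tlr8 and Tlr13 the ratio to the summed marker counts was higher in every knockout library than in any wild-type library. That was 4 of 10, beside 1.56% of all tested genes, a share that the rise of the marker sum itself lowers. Lyz2 and the 3 C1q genes made up 70.1% to 74.7% of that sum. Per 1000 marker counts, Tlr13 had 1.77, 2.46 and 2.62 counts in wild type against 5.81, 6.64 and 6.0 in knockout. Tlr8 had 3.03, 2.75 and 4.68 in wild type against 6.62, 7.57 and 10.9 in knockout. Both were clear of the wild-type range. Tlr7 had 4.11 ± 0.531 and 5.68 ± 0.374 (SD, n = 3 each), and Tlr6 1.48 ± 0.131 and 1.84 ± 0.241, with a narrow gap.

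Tlr2 was nearly level on this measure, at 4.31 ± 0.556 and 4.78 ± 0.506 per 1000 marker counts (SD, n = 3 each). Tlr4 had 19.5, 21.2 and 42.4 in wild type against 22.3, 18.4 and 18.2 in knockout, and Tlr3 14.4, 13.5 and 22.4 against 13.8, 12.2 and 11.2. Both groups overlapped, and the high value in each was wild-type replicate 3, the library with the lowest marker sum. Tlr1, Tlr5 and Tlr9 overlapped as well. These ratios were not tested, and they do not tell which cells the transcripts came from.

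Other weightings, added after the data were seen, moved some of these members. With the geometric mean of the 12 markers, or their sum without Lyz2 and the C1q genes, Tlr7, Tlr8 and Tlr13 stayed above the wild-type range in all knockout libraries, beside 1.41% and 1.32% of all tested genes, while Tlr6 overlapped and Tlr3 was lower without overlap. Per count of Adgre1, the macrophage receptor F4/80, Tlr13 alone was higher without overlap (0.0657, 0.124 and 0.121 against 0.156, 0.165 and 0.129), beside 0.185% of all tested genes. Tlr7 per Adgre1 count was 0.141, 0.193 and 0.217 in wild type against 0.143, 0.139 and 0.130 in knockout, which overlapped, with the knockout mean lower. Tlr8 overlapped, with the knockout mean higher, and Tlr2, Tlr3 and Tlr4 were lower without overlap. Adgre1 itself rose 2.93-fold, which lowers any ratio to it. The share of all tested genes that were lower without overlap was not counted for any weighting. The lower ratios are therefore not read as a result about these receptors.

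**Figure D4:**
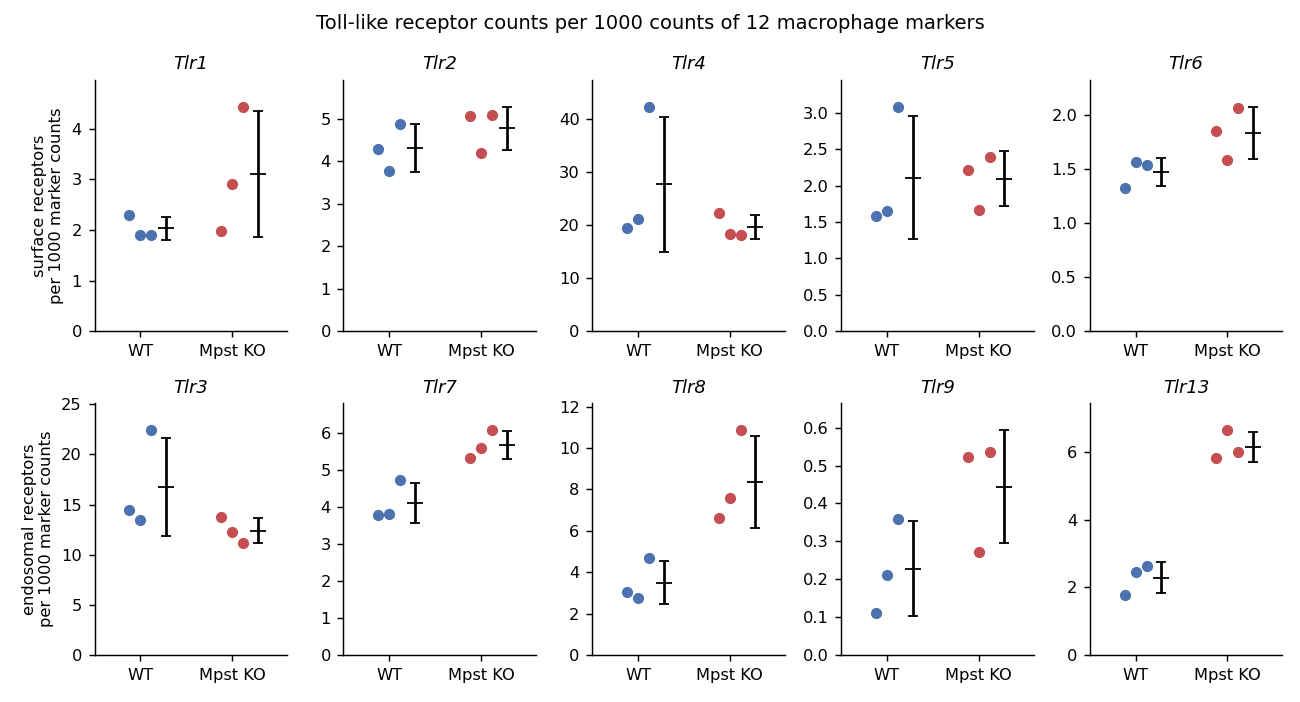
Counts of each receptor per 1000 counts summed over 12 macrophage markers (vertical axis, from 0, scaled for each gene) in wild-type (blue) and Mpst knockout (red) libraries, with mean and SD in black. With this summed denominator the groups are apart for Tlr6, Tlr7, Tlr8 and Tlr13 and overlap for the other 6 receptors.

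The patterns most like those of the leading members were found by the root mean square difference of centred log2 CPM over the 6 libraries, among 14064 genes. Closest to Tlr2 were Pyroxd2 (0.0553), Naip2 (0.0591), which encodes a sensor of the bacterial secretion apparatus, and Tns3 (0.0651), a tensin of focal adhesions. Closest to Tlr13 were Frem1 (0.131), a basement membrane protein, B430306N03Rik (0.181) and Stap1 (0.189), a signalling adaptor of leukocytes. The measure includes the difference between the genotypes, so genes that differ by a like amount on that scale rank high. It adds a prior count of 2 before the log is taken, which shrinks the differences of low genes. Frem1 and B430306N03Rik were low in wild type (means of 0.245 and 0.261 CPM), under the low-count filter's cutoff of 0.508 CPM. They would not have passed that filter on the wild-type libraries alone. Their fitted log2 fold changes were 2.81 and 2.47, against 2.20 for Tlr13.

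Beyond the receptors, 86 other genes of the pathway were listed, of which 79 were tested. Of these, 15 rose and none fell, beside 4.76% and 2.65% of all tested genes. Their median log2 fold change was 0.33. Il12b, among the 15, passed the low-count filter through the knockout libraries alone, and without it 14 of 78 rose. The count fell to 1 without knockout replicate 1 and to 0 without wild-type replicate 2, knockout replicate 2 or knockout replicate 3. By list, the median log2 fold change was 0.89 for proteases, 0.86 for inducible targets (0.57 without Il12b), 0.40 for co-receptors, 0.30 for negative regulators and 0.21 for endogenous ligands. It was 0.12 for kinases, 0.10 for transcription factors, 0.08 for trafficking genes and 0.07 for adaptors. The cell type marker sums given above moved with these genes too, and their part was not tested. Among 3 related receptors, Cd180, a leucine-rich receptor of B cells and macrophages, rose 6.13-fold, from 1.67 ± 0.930 to 9.96 ± 2.81 CPM (SD, n = 3 each; log2 fold change 2.62, SE 0.44, edgeR adjusted p = 0.0174). Tlr11 was not called (log2 change 0.63, edgeR adjusted p = 0.435), and Tlr12 was too low to test, with at most 1.06 CPM in any library. None of the 5 co-receptors and ligand transfer proteins was called by edgeR. At an unadjusted p under 0.05 there were 3, beside 3878 of the 14065 tested genes. DESeq2 called Cd36 alone and limma-voom none. Cd36, a scavenger receptor that works with TLR2 and is abundant in adipocytes, had the smallest p, with 3432 ± 383 CPM in the wild-type libraries and 4958 ± 268 CPM in the knockout libraries (log2 fold change 0.53, edgeR adjusted p = 0.0786).

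Of 9 genes of receptor trafficking and folding, 3 rose. Tmed7, a cargo receptor described for TLR4 transport, went from 67.8 ± 7.54 to 111 ± 6.63 CPM (SD, n = 3 each; log2 fold change 0.71, edgeR adjusted p = 0.0191). Lrrc59, an endoplasmic reticulum protein described with nucleic acid sensing receptors, rose by 0.58 on the log2 scale (edgeR adjusted p = 0.0302), and Rab7b, a small GTPase of endosomes, by 0.82 (edgeR adjusted p = 0.0312). Unc93b1, the chaperone that carries endosomal receptors out of the endoplasmic reticulum and was chosen here after its values were seen, had 117, 106 and 84.0 CPM in the wild-type libraries and 136, 128 and 153 CPM in the knockout libraries. Its groups did not overlap, and it was not called (log2 change 0.44, edgeR adjusted p = 0.0950). The other 5 had log2 fold changes between −0.16 and 0.08. Of 5 proteases that cut the ectodomains of endosomal receptors, Ctss, cathepsin S of antigen-presenting cells, rose from 74.4 ± 35.1 to 264 ± 19.8 CPM (log2 fold change 1.83, edgeR adjusted p = 0.0225) and Ctsk, cathepsin K, from 90.1 ± 19.4 to 167 ± 21.9 CPM (0.89, edgeR adjusted p = 0.0274).

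Of 6 adaptors 1 rose. Pik3ap1, which links the receptors to phosphoinositide 3-kinase, rose from 9.85 ± 3.16 to 26.0 ± 3.53 CPM (SD, n = 3 each; log2 fold change 1.41, edgeR adjusted p = 0.0188). Myd88, chosen after its values were seen, had 42.4, 39.6 and 40.3 CPM in the wild-type libraries and 39.3, 40.6 and 37.3 CPM in the knockout libraries, and the groups overlapped (log2 fold change −0.06, SE 0.11, edgeR adjusted p = 0.749). None of the 14 kinases and ubiquitin ligases passed edgeR's test, and DESeq2 and limma-voom called none. At an unadjusted p under 0.05 there were 3, beside 3878 of the 14065 tested genes. Tab2, an adaptor of the kinase TAK1, had the smallest p (74.4 ± 1.94 against 93.4 ± 5.44 CPM, log2 fold change 0.33, edgeR adjusted p = 0.0907). None of the 9 transcription factors passed edgeR's test, and limma-voom called none. An unadjusted p under 0.05 was found for 5, beside the same number of all tested genes as above. Irf3, the interferon regulatory factor downstream of TRIF, had the smallest p and lower values in knockout (90.6 ± 3.50 against 69.8 ± 1.21 CPM, log2 fold change −0.38, edgeR adjusted p = 0.0603). DESeq2 called Irf3, and no other of the 9, lower (adjusted p = 0.0130).

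Of 11 negative regulators, 4 rose and none fell. Tnip1, which binds the ubiquitin editor A20, rose from 54.7 ± 6.66 to 127 ± 27.1 CPM (SD, n = 3 each; log2 fold change 1.22, edgeR adjusted p = 0.0149). Tnfaip3, the gene of A20 itself, rose by 0.78 on the log2 scale (edgeR adjusted p = 0.0284), the inhibitory receptor gene Lilrb4a by 1.65 (edgeR adjusted p = 0.0244) and the lipid phosphatase gene Inpp5d by 0.70 (edgeR adjusted p = 0.0270). Socs1, a suppressor of cytokine signalling chosen after its values were seen, was lower in knockout without overlap, at 5.27, 4.98 and 9.29 CPM against 4.29, 4.01 and 3.61 CPM, and was not called (log2 fold change −0.73, edgeR adjusted p = 0.133). Of 16 inducible targets, 10 were tested and 4 were called higher, or 3 of 9 without Il12b. Cxcl10, an interferon-induced chemokine, had 3.55, 3.34 and 6.18 CPM in the wild-type libraries and 8.35, 9.86 and 13.8 CPM in the knockout libraries, with no overlap (log2 fold change 1.29, edgeR adjusted p = 0.0370). The chemokines Ccl3 (log2 fold change 1.88, edgeR adjusted p = 0.0360) and Ccl4 (1.34, edgeR adjusted p = 0.0415) rose. Il12b, a subunit of interleukin-12, was called higher (edgeR adjusted p = 0.0335) from 2, 1 and 3 counts in wild type and 7, 14 and 12 counts in knockout. As it passed the filter through the knockout libraries alone, its call is no support for the direction of the targets. The classical cytokine targets Il6, Il1b and Il10 were too low to test, and Ifnb1 had no count in any library. Tnf was tested, overlapped between the groups and was not called (log2 fold change 0.41, edgeR adjusted p = 0.523). Cxcl1, Cxcl2, Ccl2, Ccl5 and Nos2 were not called by edgeR either, and DESeq2 called Ccl5 higher. None of the 8 proteins described as endogenous ligands passed edgeR's test, and DESeq2 and limma-voom called none. At an unadjusted p under 0.05 there was 1, beside 3878 of the 14065 tested genes. The smallest p was that of Hmgb1, a nuclear protein released by dying cells (23.6 ± 4.20 against 30.4 ± 2.72 CPM, log2 fold change 0.36, edgeR adjusted p = 0.173).

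**Figure D5:**
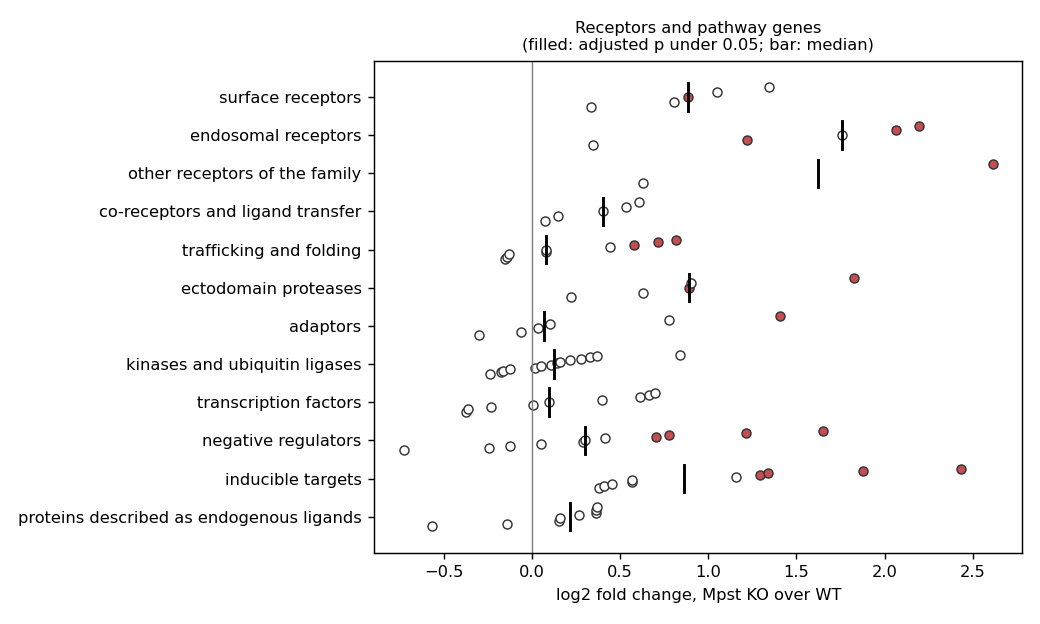
Log2 fold change, Mpst knockout over wild type (horizontal axis), of each tested gene in the 2 receptor classes and 10 lists of pathway genes, with a bar at each list's median and called genes filled. Filled points lie to the right of 0 in both receptor classes, the related receptors, trafficking genes, proteases, adaptors, negative regulators and targets, and the lists of co-receptors, kinases, transcription factors and ligands hold none.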

How the data were processed

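RNA sequencing of inguinal fat gave 1 library for each of 6 samples, from TRIzol RNA with a TruSeq RNA v2 kit and 75-base single-end reads, per the labels' protocols. The deposited values are raw read counts per gene. Per the submitters' processing notes, HISAT2 2.1.0, HTSeq 0.13.5, DESeq2 1.26 and mm10 were used; no annotation or counting setting is stated there. The 5 summary lines were left out; reads in no gene were 8.85% to 14.7% and ambiguous reads 1.63% to 1.83%.

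Samples were grouped by their titles. Counts were filtered with filterByExpr, scaled by TMM and tested with edgeR 4.0.16 (R 4.3.3), robust quasi-likelihood, with Benjamini-Hochberg adjustment over 14065 genes. The depth of 8054560 to 22458630 counts per library limits the lowest gene, Tlr9. CPM used scaled library sizes; levels per length used union exons of GENCODE M21 (GRCm38), and promoters came from RefSeq. The steps were tested on simulated counts.

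Named genes were all members, Mpst, up to 4 called genes of each pathway list by smallest p, or otherwise the gene with the smallest p, and the 3 genes most like the lead member of each class. Members and lists were chosen with earlier results of these data known. Alternatives were DESeq2 1.42.0, limma-voom (limma 3.58.1), other scalings and filters, a replicate block, leaving out libraries and thinning.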

Additional observations from a re-analysis of the deposited data

How the results depend on the processing

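The fold changes of the 10 receptors were above 0 in all 16 alternative fits (14 for Tlr9, which 2 filters removed). Tlr8 and Tlr13 were called in 12, Tlr7 in 11 and Tlr2 in 10. DESeq2 called 1074 genes higher and 894 lower, with 3 surface receptors higher and 1 pathway gene lower, and limma-voom called 2 surface receptors. The share of calls that were higher was 64.2% with edgeR, 54.6% with DESeq2 and 51.8% with the replicate block. The replicate block gave 1387 higher and 1289 lower, 2 surface receptors and 1 pathway gene lower; same-numbered libraries correlated at 0.171, −0.0994 and 0.303, so the numbers were not taken to pair them. The endosomal median was 1.64 with a mean of at least 1 CPM. With each library left out in turn, genes called higher ranged from 0 to 1434 and lower from 1 to 1167, Toll-like receptors called from 0 to 8, surface receptors from 0 to 4, endosomal receptors from 0 to 4, pathway genes higher from 0 to 17 and lower from 0 to 1, the surface median from 0.82 to 1.09 and the endosomal median from 1.51 to 2.03. In 2 further fits chosen after seeing the data, leaving out both libraries high in muscle transcripts left 0 genes higher and 1 lower, with 0 Toll-like receptors, 0 surface, 0 endosomal and 0 pathway genes called and an endosomal median of 1.58, and thinning to the smallest library gave 0 surface receptors and an endosomal median of 1.52. Per macrophage marker, also with denominators chosen after seeing the data, 4 receptors were higher without overlap over the marker sum, 3 over the geometric mean or the sum without Lyz2 and the C1q genes, and 1 over Adgre1 alone. The endosomal medians with a mean of at least 1 CPM and after thinning leave out Tlr9, which did not pass the filter there. Beyond that, the cause of these shifts was not tested. No fold change of a gene named by the rule above changed sign. Most of these genes were picked for a small p or had groups that did not overlap, so a change of sign was unlikely. Genes named outside that rule, such as Myd88, Unc93b1 and Socs1, were not followed in these fits. Depth limits Tlr9 most, with 3 to 28 counts per library.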
